A study of Mus musculus with 12 samples.

Results

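The genes described here are the Wnt ligands, the Frizzled receptors with their co-receptors Lrp5 and Lrp6, the secreted Wnt antagonists, the R-spondins, and Axin2 and Lef1. They were selected by a rule on gene symbols that used no measured value, and they numbered 47 of the 18193 genes on the arrays. Earlier results of these data were known when the genes and the lists used below were chosen. The set holds 19 ligands, 10 Frizzled receptors, 2 co-receptors, 6 antagonists that bind Wnt proteins (Sfrp1, Sfrp2, Sfrp4, Sfrp5, Frzb and Wif1), 4 Dickkopf genes, 4 R-spondins, and Axin2 and Lef1. Tcf7, which the same naming rule asks for, matched no probe set with a single gene symbol and was not analysed here. A gene with several probe sets was represented by the one with the highest mean over all 12 arrays.

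Wnt proteins are secreted, lipid-modified signals that bind Frizzled receptors on the receiving cell. In the canonical branch they also engage Lrp5 or Lrp6, which stabilises beta-catenin, and beta-catenin then acts in the nucleus with Tcf and Lef factors. Other Wnt proteins act through Frizzled and Ror receptors on cell polarity and movement. Sfrp proteins, Frzb and Wif1 bind the ligands outside the cell, Dkk1 and its relatives act on Lrp5 and Lrp6, and R-spondins raise the number of Frizzled receptors at the surface. In the early embryo these signals act in the primitive streak and tail bud, in mesoderm patterning, and in neural and heart development.

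Expression was measured on 12 arrays, 3 for each of 4 groups of sorted cells from mouse embryos at embryonic day 8.0. The groups were ER71 mutant EYFP-positive cells, ER71 wild-type EYFP-positive cells, ER71 mutant EYFP-negative cells and ER71 wild-type EYFP-negative cells. They are called mutant positive, wild-type positive, mutant negative and wild-type negative cells here. ER71, also named Etv2, is an ETS transcription factor without which endothelium and blood do not form, and EYFP is a yellow fluorescent protein. All embryos came from a mixed C57BL/6 and FVB line. Trypsin was used to dissociate the embryos and a BD FACSAria to sort the cells, and their RNA went through 2 rounds of amplification. It is not stated in the labels what drives EYFP, which part of ER71 is missing in the mutant, or whether the 3 samples of a group are separate animals, pools or repeats. All p-values therefore rest on the variation among these samples, and this variation may be technical.

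All values are log2 expression values from RMA, a method that turns the brightness of the probes of an Affymetrix array into a level for each probe set, and array medians lay between 6.98 and 7.06. A difference counted as past the threshold when limma's adjusted p, taken over all 18193 genes of a comparison, was under 0.05. For further probe sets of a gene, the adjusted p came from a separate limma fit of 34945 probe sets, and was taken over all of them. Levels below the 25th percentile of the arrays, 5.65 on average, are called dim, because differences there have an uncertain size. The mean was dim for 6 of the 47 genes (Wnt3, Wnt8a, Lrp5, Wif1, Dkk4 and Rspo4). Errors of log2 differences are limma's standard errors, with 3 arrays in each group.

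Etv2 itself read 7.26 to 7.40 in mutant positive cells, against 10.70 to 11.36 in wild-type positive cells, and 7.24 to 7.49 in mutant negative cells, against 7.50 to 7.85 in wild-type negative cells, though its probe set may lie outside the part missing in mutants. The mean level of 10 endothelial markers was 7.80 to 7.88 in mutant positive cells, against 10.45 to 10.66 in wild-type positive cells, 7.21 to 7.38 in mutant negative cells and 7.18 to 7.31 in wild-type negative cells. Of these, 9 of 10 were lower in mutant positive than in wild-type positive cells, and Cdh5 and Emcn were dim in all groups other than wild-type positive cells. The mean of 8 primitive erythroid markers was 6.12 to 6.20 in mutant positive cells, against 10.48 to 11.18 in wild-type positive cells, 6.17 to 7.66 in mutant negative cells and 6.26 to 8.14 in wild-type negative cells. The mean of 8 cardiac markers was 11.29 to 11.62 in mutant positive cells, against 9.32 to 10.06 in wild-type positive cells, 9.60 to 10.18 in mutant negative cells and 9.84 to 10.28 in wild-type negative cells. All 8 were higher in mutant positive than in wild-type positive cells, as were 5 of 7 markers of lateral plate mesoderm and allantois. The mean of 8 neural markers was 7.36 to 8.52 in mutant positive cells, against 7.70 to 8.77 in wild-type positive cells, 10.19 to 10.42 in mutant negative cells and 9.82 to 10.19 in wild-type negative cells. The mean of 8 markers of epithelium and definitive endoderm was 8.25 to 8.98 in mutant positive cells, against 8.64 to 9.01 in wild-type positive cells, 9.74 to 10.35 in mutant negative cells and 10.25 to 10.51 in wild-type negative cells. Of these 8, 5 were lower and 1 higher in positive than in negative cells of mutants, against 2.29% and 3.07% of all genes. In wild types 4 were lower and 1 higher, against 3.61% and 4.63%. The higher one was Sox17, which is also among the 10 endothelial markers. Between the positive groups 2 were higher and 1 lower in mutant positive cells, against 4.23% and 3.74%. Of 5 streak and tail bud markers, 2 were lower in positive cells of mutants and 3 in those of wild types, and none was higher. No cardiac or neural marker was dim in any group. These marker levels moved with the groups compared below, and their part in the Wnt results was not tested. In bulk samples such as these, fewer cells of a type and less RNA per cell cannot be told apart. The actin probe sets at the 3′ end read above those at the 5′ end, a sign of RNA quality, by 1.40 to 1.62 log2 in mutant positive cells, against 1.54 to 3.05 in wild-type positive cells, 1.87 to 2.72 in mutant negative cells and 1.57 to 3.14 in wild-type negative cells. Mutant positive and mutant negative arrays did not overlap in it, and its part in the results was not tested. Afp, which yolk sac endoderm expresses, stood at 11.98 on mutant positive array 1 and at 5.02 and 4.04 on arrays 2 and 3. It read 9.34 to 11.06 on the negative arrays of both genotypes. Hbb-y, an erythroid marker, read 5.01, 11.55 and 4.71 on mutant negative arrays 1, 2 and 3, and 10.80, 5.59 and 11.94 on the wild-type negative ones. The part of these arrays in the results was not tested by cell type. Both wild-type arrays numbered 1 had Eif2s3y, a Y-linked gene, at 10.8 in positive and 11.2 in negative cells, against 4.11 to 4.53 on the other 10 arrays. Xist, which female cells express, read 10.33 and 8.19 on them, against 13.36 to 13.98 on the other 10. All mutant arrays are among these 10, so sex was not balanced between the genotypes. Results without both wild-type arrays numbered 1 are given below.

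Without a replicate block, the Wnt-related genes that differed between positive and negative cells of wild-type embryos were all lower in the positive cells. With the replicate block within genotype, 16 passed, 15 lower and Fzd4 higher (0.84 log2, adjusted p = 0.0225). With that block 2160 of all 18193 genes passed, 1119 as higher and 1041 as lower. Without the block, of the 47 genes, 13 (27.7%) passed the threshold and all 13 were lower, while 8.24% of all genes passed and 3.61% passed as lower. They comprised 2 ligands (Wnt5b and Wnt8b), 4 receptors (Fzd1, Fzd2, Fzd3 and Fzd7), 4 antagonists (Sfrp1, Sfrp2, Wif1 and Dkk1), Rspo3, Axin2 and Lef1. The median difference over the 47 genes was -0.30 log2, against -0.02 over all genes. The 3 positive and 3 negative arrays did not overlap for 27 of the 47 (57.4%), against 25.2% of all genes. For 25 of the 47 the positive arrays lay below the negative ones, which held for 13.3% of all genes, and for 2 they lay above, against 11.9% of all genes. In the other direction 4.63% of all genes passed as higher. With both wild-type arrays numbered 1 left out, 7 of the 47 genes passed, and the calls of Fzd1, Fzd2, Dkk1, Lef1, Rspo3 and Wnt8b were lost at adjusted p 0.0521 to 0.404.

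Between mutant positive and wild-type positive cells, 12 of the 47 genes (25.5%) passed the threshold, against 7.97% of all genes. Of these, 11 were higher in mutant positive cells (Wnt2, Fzd1, Fzd2, Fzd7, Sfrp1, Sfrp5, Frzb, Dkk1, Dkk3, Rspo1 and Axin2), a direction that 4.23% of all genes had. The receptor Fzd5 was lower, as were 3.74% of all genes. The median over the 47 genes was 0.15 log2, against 0.01 over all genes. Arrays of the 2 groups did not overlap for 15 of the 47 (31.9%), against 25.7% of all genes. Of the 15, 14 were higher, against 13.8% of all genes, and 1 lower, against 11.8%. Without both wild-type arrays numbered 1, Frzb (adjusted p = 0.0945) and Fzd5 (adjusted p = 0.0659) no longer passed. This comparison and the one within wild types share the wild-type positive arrays, so their values are given side by side below and the overlap of their lists is not read as a result.

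Between mutant positive and mutant negative cells, 12 of the 47 genes (25.5%) passed, against 5.36% of all genes. Here 9 were lower in positive cells (Wnt1, Wnt5b, Wnt8a, Wnt8b, Fzd3, Fzd5, Fzd6, Sfrp2 and Rspo3), as were 2.29% of all genes, and 3 were higher (Wnt2, Dkk3 and Rspo1), as were 3.07%. The sort comparisons of the 2 genotypes share no arrays, and 5 genes were lower in both, Wnt5b, Wnt8b, Fzd3, Sfrp2 and Rspo3. Arrays of the mutant sort did not overlap for 20 of the 47 genes (42.6%), against 19.5% of all genes, with 15 lower against 11.0% of all genes and 5 higher against 8.48%. The 5 genes lower in both genotypes make up 55.6% of the 9 genes lower in mutants and 38.5% of the 13 lower in wild types. The same shares over all genes were not counted, so this overlap is not read as a result.

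Between mutant negative and wild-type negative cells, 0 of the 47 genes passed the threshold with limma, as did 0.0% of all genes, and the smallest adjusted p among the 47 was 0.929. An unadjusted p under 0.05 was found for 3 of them (6.38%; Wnt1, Wnt8a and Fzd4), against 5.22% of all genes. Arrays did not overlap for 6 of the 47 (12.8%), against 11.2% of all genes, with 4 higher against 7.2% of all genes and 2 lower against 4.01%. The largest difference was that of Fzd4, at -0.68 log2.

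The interaction, which is the difference between positive and negative cells in mutants minus that in wild types, passed for 5 of the 47 genes (10.6%), against 2.58% of all genes. All 5 were positive (Wnt2, Fzd1, Fzd7, Sfrp1 and Axin2), as were 0.973% of all genes, while 0 of the 47 and 1.61% of all genes were negative.

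**Figure D1:**
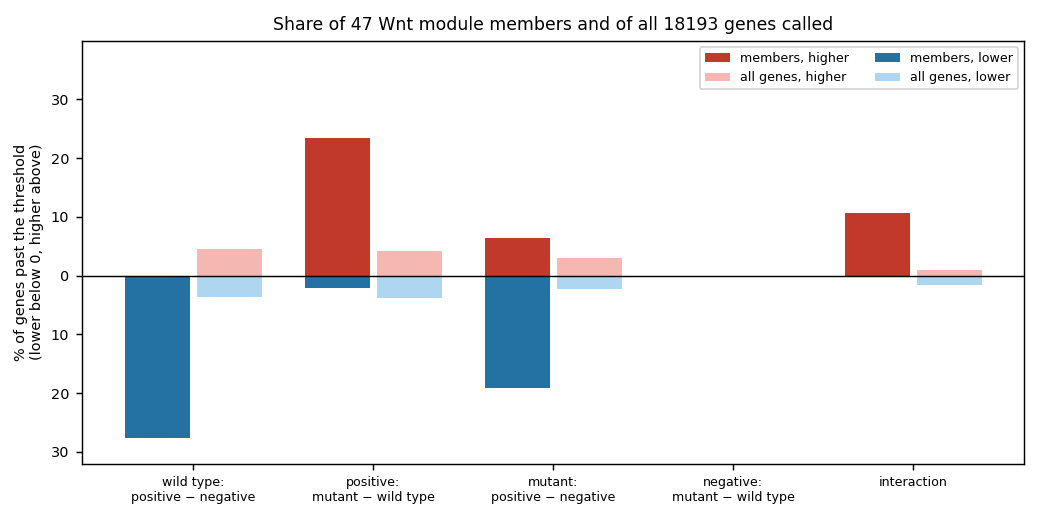
Share of genes past the threshold in each comparison, in percent, for the 47 Wnt-related genes (dark) beside all 18193 genes (pale), with genes that were higher above 0 and those that were lower below it. In wild types 27.7% of the 47 genes were lower in positive cells against 3.61% of all genes, and between mutant negative and wild-type negative cells both shares were 0.

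**Figure D2:**
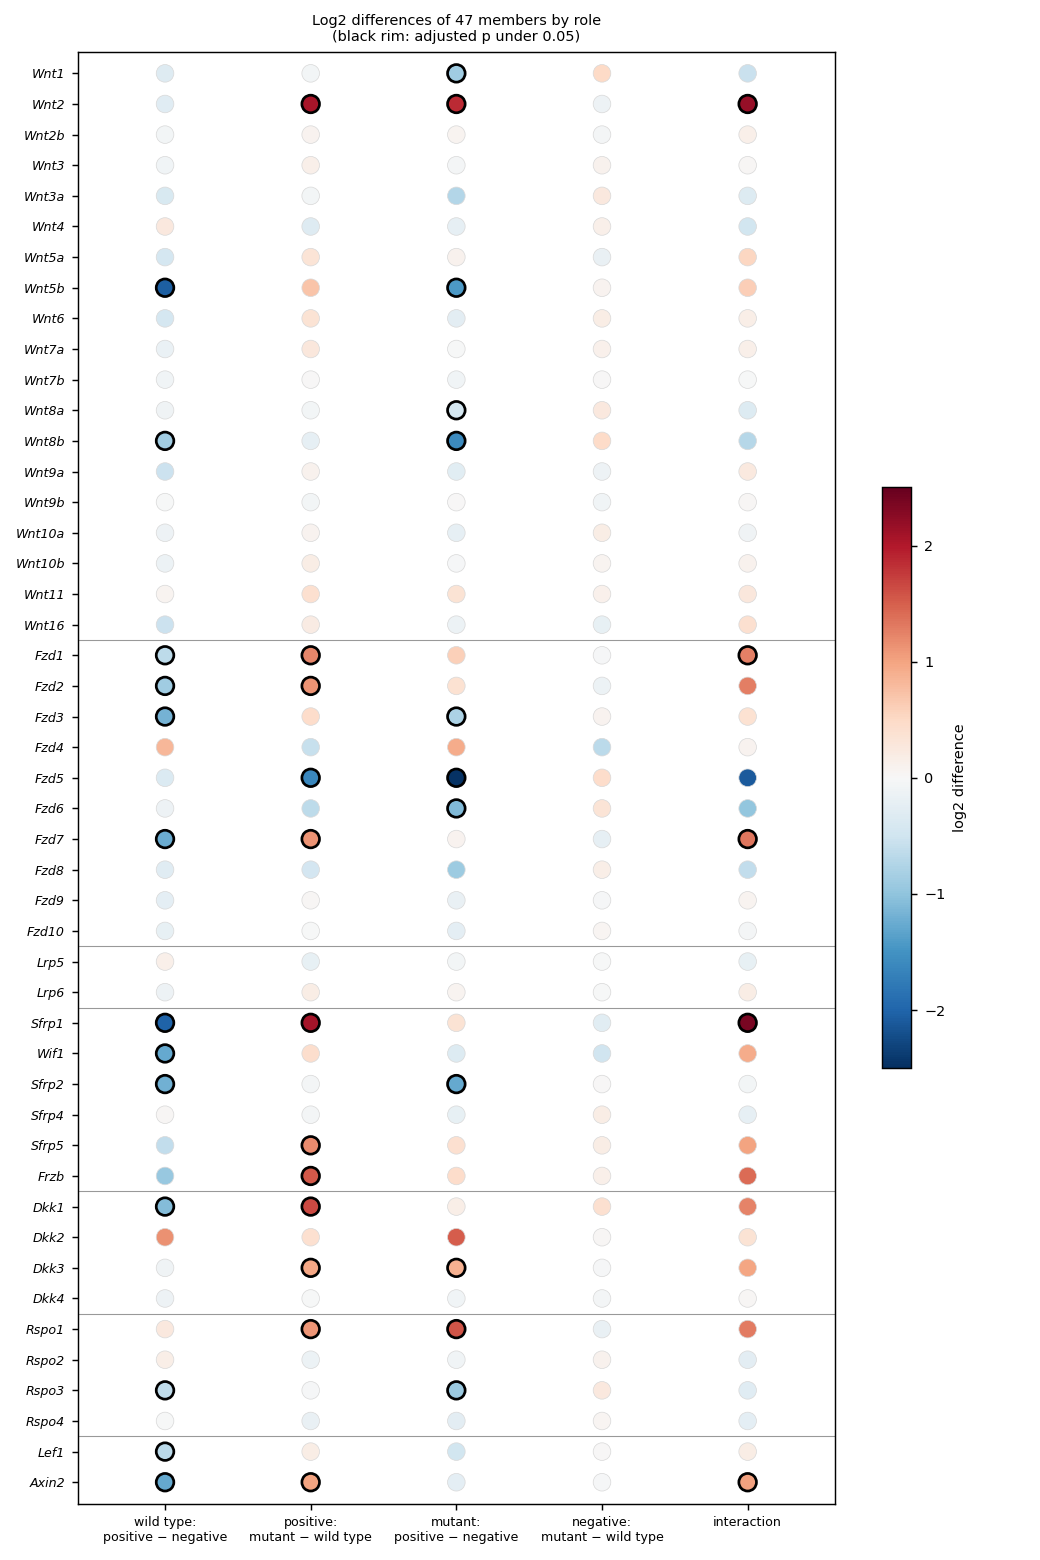
Log2 difference of each of the 47 genes in the 5 comparisons, as coloured dots with a black rim where the adjusted p was under 0.05. The 13 rimmed dots of the comparison within wild types are all negative, and 11 of the 12 between mutant positive and wild-type positive cells are positive.

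Promoter stretches are printed for Axin2, Fzd1, Fzd7, Dkk1 and Wnt2, which are among the 12 genes that separated the positive cells of the 2 genotypes. Each is the 250 bases before the annotated start, 5′ to 3′ on the strand of the gene, from RefSeq on mouse build GRCm38.p6. The stretches are chr11:108920099-108920348 on the plus strand for Axin2, chr5:4758217-4758466 on the minus strand for Fzd1, chr1:59481897-59482146 on the plus strand for Fzd7, chr19:30549497-30549746 on the minus strand for Dkk1 and chr6:18030446-18030695 on the minus strand for Wnt2. Capitals mark the letters CTTTGA or, on the other strand, TCAAAG, a core that Tcf and Lef factors can bind.
Axin2: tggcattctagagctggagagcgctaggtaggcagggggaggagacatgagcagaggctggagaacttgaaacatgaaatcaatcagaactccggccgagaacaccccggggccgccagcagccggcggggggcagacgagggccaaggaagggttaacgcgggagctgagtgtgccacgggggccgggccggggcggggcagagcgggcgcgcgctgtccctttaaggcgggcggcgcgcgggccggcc
Fzd1: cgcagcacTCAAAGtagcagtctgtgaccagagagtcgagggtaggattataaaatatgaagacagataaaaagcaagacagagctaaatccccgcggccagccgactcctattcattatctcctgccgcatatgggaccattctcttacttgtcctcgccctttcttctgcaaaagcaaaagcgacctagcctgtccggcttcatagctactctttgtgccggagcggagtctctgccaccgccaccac
Fzd7: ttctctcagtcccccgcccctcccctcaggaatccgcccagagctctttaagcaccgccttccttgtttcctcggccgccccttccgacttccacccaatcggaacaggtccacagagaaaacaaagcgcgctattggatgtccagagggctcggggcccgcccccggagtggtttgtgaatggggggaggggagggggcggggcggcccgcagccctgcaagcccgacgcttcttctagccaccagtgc
Dkk1: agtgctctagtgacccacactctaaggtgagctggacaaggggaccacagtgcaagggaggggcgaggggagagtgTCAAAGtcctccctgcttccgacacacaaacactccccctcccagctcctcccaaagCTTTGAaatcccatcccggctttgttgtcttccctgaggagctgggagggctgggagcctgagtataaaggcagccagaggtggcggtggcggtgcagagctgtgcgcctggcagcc
Wnt2: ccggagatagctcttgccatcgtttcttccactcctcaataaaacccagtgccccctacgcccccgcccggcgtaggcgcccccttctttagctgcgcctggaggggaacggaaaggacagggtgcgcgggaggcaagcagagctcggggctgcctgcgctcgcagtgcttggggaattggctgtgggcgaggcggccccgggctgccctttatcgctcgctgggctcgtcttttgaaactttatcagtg
Other forms of the core were not searched. In exactly these letters it stood at 1 place in the Fzd1 stretch, at 2 in the Dkk1 stretch and at none in the other 3. In windows of the same length, it was present in 6 of the 37 promoters that matched 31 of the 47 genes (16.2%; genes Frzb, Lef1, Fzd1, Wnt5b, Wnt11 and Dkk1), against 13.8% of all 32851 promoters. An ETS core, CCGGAA or TTCCGG, was present in 2 of the 37 (5.41%; Fzd10 and Wnt11), against 12.0% of all promoters. Neither core contains the other, and a match describes the letters only.

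Among the ligands, Wnt2 had the largest difference between the positive cells of the 2 genotypes. Wnt2, a ligand used in heart, lung and vascular development, read 9.96, 9.27 and 9.64 in mutant positive cells, against 7.93, 7.62 and 7.17 in wild-type positive cells. It was 8.12, 7.32 and 7.83 in mutant negative cells, against 7.44, 8.10 and 8.09 in wild-type negative cells. The 3 mutant positive arrays lay above all 9 other arrays, which overlapped each other. Wnt2 was 4.15-fold higher in mutant positive than in wild-type positive cells (2.05 ± 0.27 log2, adjusted p = 0.000735) and 3.66-fold higher than in mutant negative cells (1.87 ± 0.27, adjusted p = 0.00192). In wild types the sort difference was -0.30 ± 0.27 (adjusted p = 0.654), and the interaction was 2.17 ± 0.38 (adjusted p = 0.0105).

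Wnt5b and Wnt8b were lower in positive cells of both genotypes. Wnt5b, which acts largely outside the beta-catenin branch, read 8.98, 9.11 and 8.76 in mutant positive cells, against 8.42, 8.29 and 8.01 in wild-type positive cells. It was 10.28, 10.78 and 10.11 in mutant negative cells, against 10.65, 10.36 and 9.91 in wild-type negative cells. Positive and negative arrays did not overlap in either genotype. It was 2.71-fold lower in positive cells of mutants (-1.44 ± 0.21 log2, adjusted p = 0.00219) and 4.18-fold lower in positive cells of wild types (-2.06 ± 0.21, adjusted p = 9.19e-05). The mutant positive arrays also lay above the wild-type positive ones, by 0.71 ± 0.21, which did not pass (adjusted p = 0.068). In the fit of all probe sets, the second Wnt5b probe set passed there (0.78 ± 0.13, adjusted p = 0.00582) and the chosen one did not (adjusted p = 0.0868).

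Wnt8b, a ligand of the forebrain, read 6.17, 6.76 and 6.74 in mutant positive cells, against 6.47, 7.09 and 6.80 in wild-type positive cells. It was 7.90, 8.31 and 8.21 in mutant negative cells, against 8.13, 7.55 and 7.28 in wild-type negative cells. In both genotypes all negative arrays stood above all positive ones. It was 3.00-fold lower in positive cells of mutants (-1.58 ± 0.24 log2, adjusted p = 0.00262) and 1.82-fold lower in positive cells of wild types (-0.87 ± 0.24, adjusted p = 0.0497). The wild-type call lay at the threshold and was lost without any one of 9 arrays, at adjusted p 0.0573 to 0.178, and kept without mutant positive array 1, wild-type positive array 2 or wild-type negative array 3. In a fit of all probe sets, a second Wnt8b probe set gave -0.02 in mutants (adjusted p = 0.983) and 0.08 in wild types (adjusted p = 0.86). The remaining Wnt8b probe set gave -0.53 ± 0.12 in mutants, which passed (adjusted p = 0.0289), and 0.01 in wild types (adjusted p = 0.989).

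Wnt1, a ligand of the midbrain and dorsal neural tube, read 6.44, 6.71 and 6.57 in mutant positive cells, against 6.35, 6.86 and 6.71 in wild-type positive cells. It was 7.73, 7.03 and 7.61 in mutant negative cells, against 7.06, 6.89 and 6.93 in wild-type negative cells. All negative arrays of mutants were above all positive ones, and Wnt1 was 1.84-fold lower in positive cells (-0.88 ± 0.18 log2, adjusted p = 0.0152). With array 1 or 3 of the mutant negative group or array 1 of the mutant positive group left out, the adjusted p was 0.0545 to 0.064. Wnt8a, a ligand of the primitive streak and tail region, read 5.02, 4.89 and 5.02 in mutant positive cells, against 4.99, 5.17 and 4.97 in wild-type positive cells. It was 5.55, 5.42 and 5.28 in mutant negative cells, against 5.08, 5.29 and 5.09 in wild-type negative cells. All 12 of these values are dim, and in mutants the positive arrays lay below the negative ones, with a difference of -0.44 ± 0.11 (adjusted p = 0.0319). That call was lost without any one of mutant positive arrays 1, 2 and 3 or mutant negative arrays 1 and 2, at adjusted p 0.0654 to 0.119, and at 0.0591 without both wild-type arrays numbered 1.

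The other 14 ligands (Wnt2b, Wnt3, Wnt3a, Wnt4, Wnt5a, Wnt6, Wnt7a, Wnt7b, Wnt9a, Wnt9b, Wnt10a, Wnt10b, Wnt11 and Wnt16) passed in no comparison. Their largest difference was that of Wnt3a, a canonical ligand of the streak and tail bud, at -0.74 ± 0.20 log2 between mutant positive and mutant negative cells (adjusted p = 0.0557). With the replicate number as a block within genotype that difference passed (adjusted p = 0.043), as did Wnt6 in wild types, at -0.44 (adjusted p = 0.0349). The ranges of the 14 over the 12 arrays ran between 0.26 log2 for Wnt9b and 1.70 for Wnt4.

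**Figure D3:**
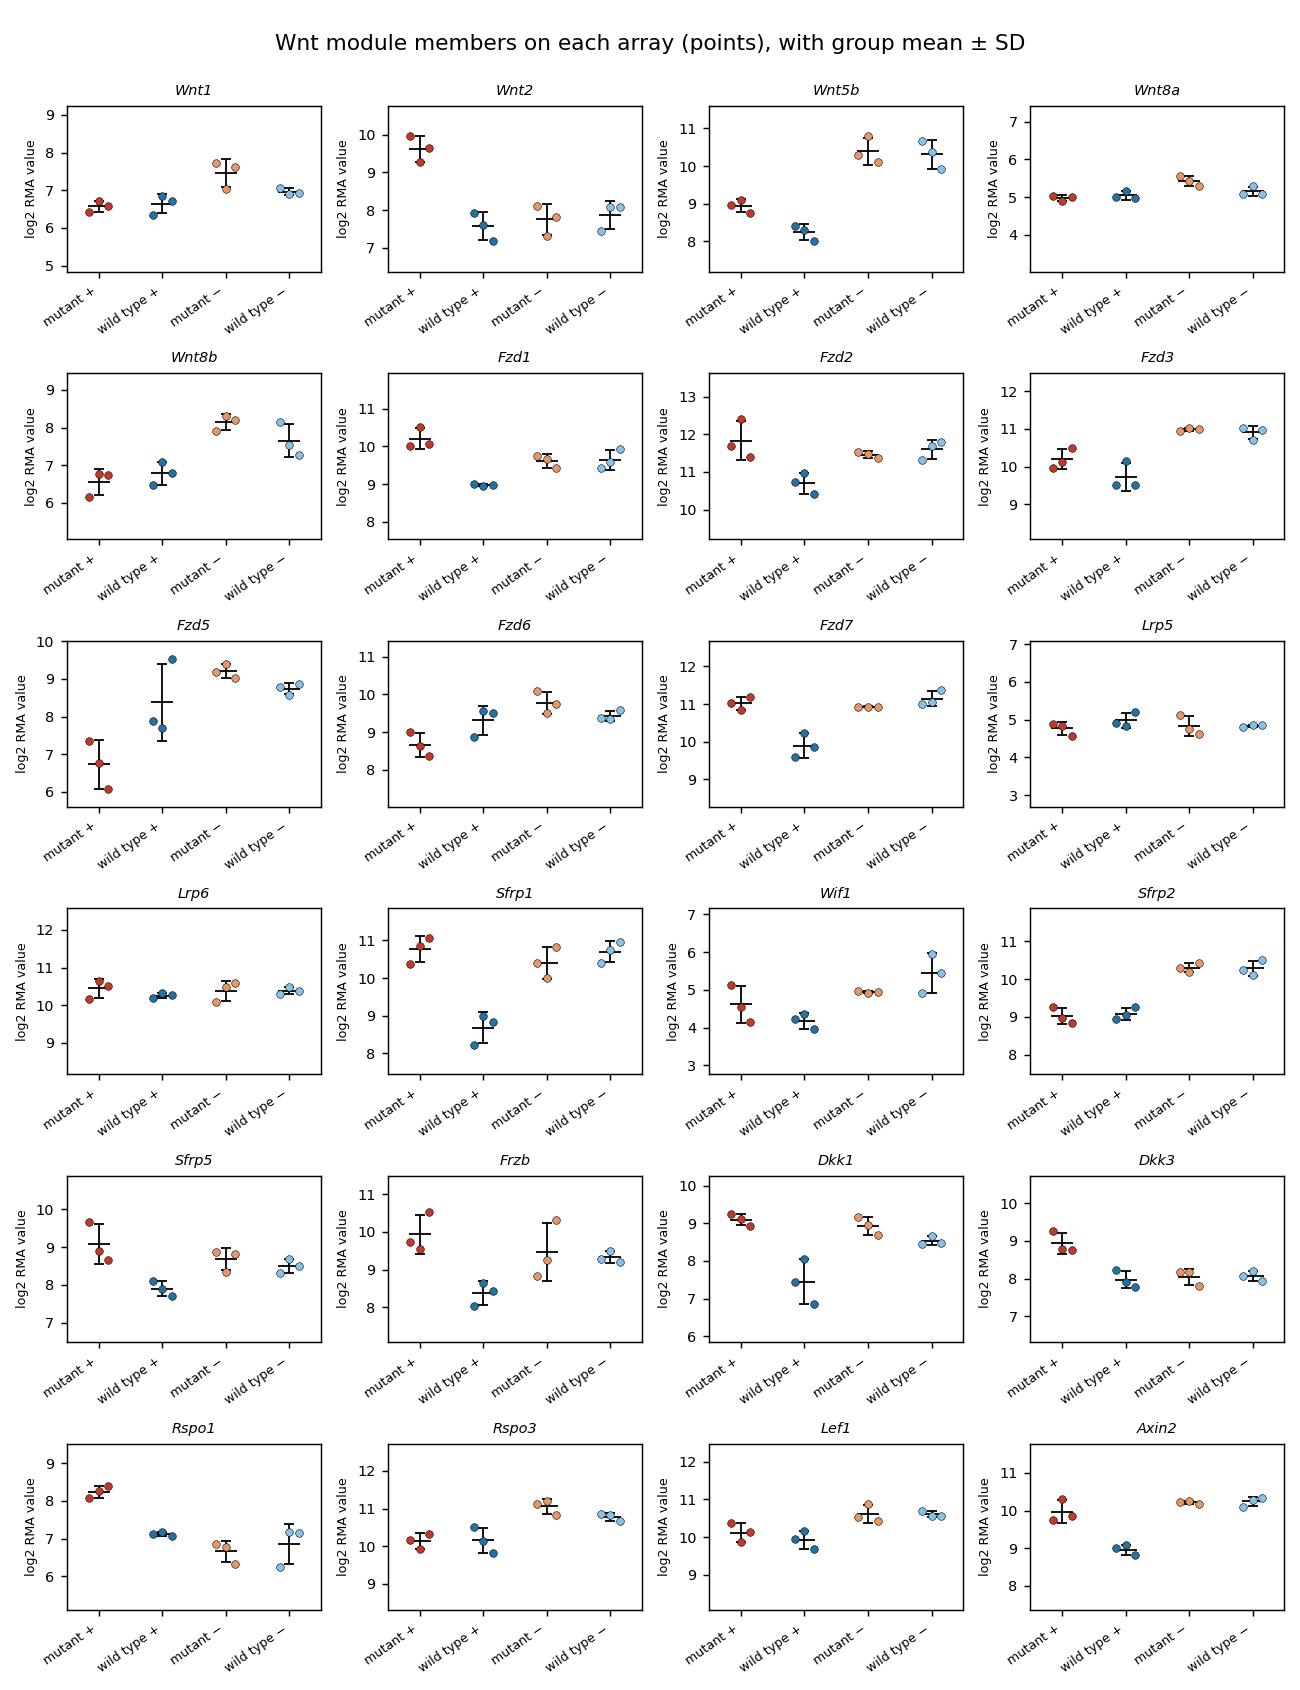
Log2 RMA level on each of the 12 arrays for 24 genes, 1 panel per gene, with groups ordered as mutant positive, wild-type positive, mutant negative and wild-type negative; points are arrays and bars are the mean with SD of 3 arrays. In the panels of Wnt5b, Fzd1, Fzd2, Fzd7, Sfrp1, Sfrp5, Frzb, Dkk1 and Axin2 the 3 wild-type positive arrays lie below all other arrays.

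Among the Frizzled receptors, Fzd1, Fzd2 and Fzd7 had low values in wild-type positive cells. Fzd7, a receptor of both the canonical and the polarity branch, read 11.03, 10.83 and 11.19 in mutant positive cells, against 9.59, 10.24 and 9.86 in wild-type positive cells. It was 10.93, 10.92 and 10.93 in mutant negative cells, against 11.00, 11.07 and 11.36 in wild-type negative cells. The wild-type positive arrays lay below all 9 others. Fzd7 was 2.17-fold higher in mutant positive than in wild-type positive cells (1.12 ± 0.16 log2, adjusted p = 0.00139) and 2.37-fold lower in positive than in negative cells of wild types (-1.25 ± 0.16, adjusted p = 0.000519). In mutants the sort difference was 0.09 ± 0.16 (adjusted p = 0.884), and the interaction was 1.34 ± 0.23 (adjusted p = 0.00892).

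Fzd1, likewise a Wnt receptor, read 10.01, 10.53 and 10.08 in mutant positive cells, against 9.02, 8.95 and 8.99 in wild-type positive cells. It was 9.76, 9.66 and 9.42 in mutant negative cells, against 9.42, 9.58 and 9.93 in wild-type negative cells. Again the wild-type positive arrays were below all others, and the mutant positive arrays were above all others. Fzd1 was 2.33-fold higher in mutant positive than in wild-type positive cells (1.22 ± 0.16 log2, adjusted p = 0.000806) and 1.58-fold lower in positive than in negative cells of wild types (-0.66 ± 0.16, adjusted p = 0.0285). The interaction was 1.25 ± 0.23 (adjusted p = 0.0142). The sort difference in mutants, 0.59 ± 0.16, did not pass (adjusted p = 0.0627) but did with the replicate block within genotype (adjusted p = 0.0455). The call within wild types did not survive removal of wild-type positive array 1, 2 or 3 or wild-type negative array 2 or 3, at adjusted p 0.0678 to 0.113.

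Fzd2, also implicated in both branches, read 11.69, 12.42 and 11.39 in mutant positive cells, against 10.73, 10.97 and 10.42 in wild-type positive cells. It was 11.54, 11.47 and 11.37 in mutant negative cells, against 11.32, 11.68 and 11.80 in wild-type negative cells. Wild-type positive arrays did not overlap with either mutant positive or wild-type negative arrays. Fzd2 was 2.19-fold higher in mutant positive than in wild-type positive cells (1.13 ± 0.23 log2, adjusted p = 0.0126) and 1.86-fold lower in positive than in negative cells of wild types (-0.90 ± 0.23, adjusted p = 0.0378). The call within wild types was lost on removal of wild-type positive array 1 or 3, mutant negative array 1, 2 or 3, or wild-type negative array 2 or 3, at adjusted p 0.0511 to 0.139. With only the positive groups in the model, the difference between them missed the threshold (adjusted p = 0.0747).

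The second probe sets of Fzd1 and Fzd7 showed smaller differences. For Fzd7 they were 0.15 between mutant positive and wild-type positive cells and -0.13 between wild-type positive and wild-type negative cells, and for Fzd1, whose second probe set was dim (mean 5.11), 0.02 and -0.11. None of these passed. In a fit of all probe sets, the second Fzd2 probe set gave 1.00 and -0.90, and both passed (adjusted p = 0.0108 and 0.0175). The third gave 1.18, which passed (adjusted p = 0.0419), and -0.98, which did not (adjusted p = 0.0894). In that fit the chosen Fzd2 probe set did not pass within wild types (adjusted p = 0.0523).

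Fzd3, a receptor of the planar polarity branch in axon guidance and neural tube closure, read 9.97, 10.12 and 10.48 in mutant positive cells, against 9.51, 10.14 and 9.51 in wild-type positive cells. It was 10.94, 11.03 and 11.00 in mutant negative cells, against 11.03, 10.72 and 10.97 in wild-type negative cells. Negative arrays were above positive arrays in both genotypes. It was 1.74-fold lower in positive cells of mutants (-0.80 ± 0.18 log2, adjusted p = 0.0243) and 2.27-fold lower in positive cells of wild types (-1.18 ± 0.18, adjusted p = 0.00167). The mutant call was lost without array 1 or 2 of the mutant positive or any array of the mutant negative group, at adjusted p 0.057 to 0.0851.

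Fzd5, a receptor used in eye and yolk sac development, read 7.36, 6.76 and 6.08 in mutant positive cells, against 7.89, 7.69 and 9.54 in wild-type positive cells. It was 9.19, 9.39 and 9.02 in mutant negative cells, against 8.78, 8.58 and 8.87 in wild-type negative cells. The mutant positive arrays lay below all others and spread over more than 1 log2 unit. Fzd5 was 3.12-fold lower in mutant positive than in wild-type positive cells (-1.64 ± 0.43 log2, adjusted p = 0.0376) and 5.53-fold lower than in mutant negative cells (-2.47 ± 0.43, adjusted p = 0.00568). Without wild-type positive array 3, which read 9.54, the difference between the positive groups was -1.06 (adjusted p = 0.0628). That call was also lost without mutant positive array 2 or 3, any of the 3 wild-type negative arrays, or mutant negative array 1 or 3, at adjusted p 0.0513 to 0.122. Its second probe set gave -0.13 between the positive groups and -0.31 in the mutant sort, and neither passed.

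Fzd6, a receptor of hair and tissue polarity, read 9.00, 8.63 and 8.35 in mutant positive cells, against 8.87, 9.56 and 9.50 in wild-type positive cells. It was 10.08, 9.49 and 9.73 in mutant negative cells, against 9.36, 9.34 and 9.59 in wild-type negative cells. Positive arrays of mutants lay below the negative ones, and those of wild types overlapped them. It was 2.16-fold lower in positive cells of mutants (-1.11 ± 0.22 log2, adjusted p = 0.012), against -0.12 ± 0.22 in wild types (adjusted p = 0.869). The second Fzd6 probe set gave -0.13 in mutants (adjusted p = 0.794). The interactions of Fzd5, -2.10 ± 0.60 (adjusted p = 0.117), and Fzd6, -0.99 ± 0.31 (adjusted p = 0.159), passed with the replicate block within genotype (adjusted p = 0.0417 for Fzd5 and 0.045 for Fzd6).

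Fzd4, a receptor of Wnt proteins and of Norrin that is used in vessels, passed in no comparison. It read 10.03, 10.56 and 9.57 in mutant positive cells, against 11.13, 10.27 and 10.50 in wild-type positive cells. It was 8.93, 9.55 and 8.88 in mutant negative cells, against 9.69, 9.79 and 9.90 in wild-type negative cells. The positive arrays lay above the negative arrays in mutants, by 0.93 ± 0.28 log2 (adjusted p = 0.0852), and in wild types, by 0.84 ± 0.28 (adjusted p = 0.0995). Both differences passed with the replicate block within genotype, at adjusted p = 0.0187 in mutants and 0.0225 in wild types. A second Fzd4 probe set gave 1.03 ± 0.19 in mutants, which passed without the block (adjusted p = 0.014). Fzd8, at -0.91 ± 0.29 in the mutant sort (adjusted p = 0.109), also passed with the block (adjusted p = 0.0265). Fzd9 and Fzd10 passed in no comparison.

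Neither co-receptor passed in any comparison. Lrp6, the more widely required of the 2 in the early embryo, read 10.17, 10.65 and 10.52 in mutant positive cells, against 10.19, 10.32 and 10.27 in wild-type positive cells. It was 10.09, 10.48 and 10.58 in mutant negative cells, against 10.29, 10.49 and 10.38 in wild-type negative cells. Lrp5 read 4.89, 4.84 and 4.58 in mutant positive cells, against 4.92, 4.82 and 5.20 in wild-type positive cells. It was 5.13, 4.75 and 4.63 in mutant negative cells, against 4.81, 4.86 and 4.85 in wild-type negative cells, which is dim throughout. The groups overlapped for both genes in every comparison of 2 groups. The largest difference was -0.21 ± 0.15 log2, for Lrp5 between mutant positive and wild-type positive cells (adjusted p = 0.45).

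Of the antagonists that bind Wnt proteins, Sfrp1, Sfrp5 and Frzb had all 3 wild-type positive arrays below all other arrays. Sfrp1, a secreted protein with a Frizzled-like Wnt-binding domain, read 10.38, 10.85 and 11.07 in mutant positive cells, against 8.22, 8.99 and 8.83 in wild-type positive cells. It was 10.39, 9.99 and 10.83 in mutant negative cells, against 10.40, 10.73 and 10.95 in wild-type negative cells. The 3 wild-type positive arrays lay below all 9 others, and the other 3 groups overlapped. Sfrp1 was 4.24-fold higher in mutant positive than in wild-type positive cells (2.08 ± 0.26 log2, adjusted p = 0.000546) and 4.04-fold lower in positive than in negative cells of wild types (-2.01 ± 0.26, adjusted p = 0.000535). In mutants the sort difference was 0.36 ± 0.26 (adjusted p = 0.606), and the interaction was 2.38 ± 0.37 (adjusted p = 0.00481). Its other 4 probe sets gave 0.70 to 1.49 between the positive groups, 3 of them past the threshold, and -1.34 to -0.61 in the wild-type sort, 2 of them past it.

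Sfrp2, a close relative of Sfrp1, had another pattern. Sfrp2 read 9.26, 8.97 and 8.83 in mutant positive cells, against 8.93, 9.06 and 9.25 in wild-type positive cells. It was 10.29, 10.18 and 10.42 in mutant negative cells, against 10.23, 10.11 and 10.51 in wild-type negative cells. All 6 positive arrays lay below all 6 negative arrays, and the genotypes overlapped within each sort. It was 2.42-fold lower in positive cells of mutants (-1.28 ± 0.14 log2, adjusted p = 0.000492) and 2.31-fold lower in positive cells of wild types (-1.21 ± 0.14, adjusted p = 0.00027). The interaction was -0.07 ± 0.20 (adjusted p = 0.944).

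Sfrp5, a further secreted Frizzled-related protein, read 9.68, 8.89 and 8.66 in mutant positive cells, against 8.09, 7.90 and 7.70 in wild-type positive cells. It was 8.88, 8.34 and 8.83 in mutant negative cells, against 8.32, 8.69 and 8.50 in wild-type negative cells. The wild-type positive arrays lay below all other arrays, and the mutant positive arrays overlapped the mutant negative ones. It was 2.27-fold higher in mutant positive than in wild-type positive cells (1.18 ± 0.24 log2, adjusted p = 0.0115). A second Sfrp5 probe set gave 0.08 there (adjusted p = 0.676), and with only the positive groups in the model the adjusted p was 0.0605.

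Frzb, also called Sfrp3, read 9.72, 9.56 and 10.52 in mutant positive cells, against 8.04, 8.66 and 8.43 in wild-type positive cells. It was 8.84, 9.26 and 10.32 in mutant negative cells, against 9.27, 9.50 and 9.20 in wild-type negative cells. The wild-type positive arrays lay below all other arrays. It was 2.94-fold higher in mutant positive than in wild-type positive cells (1.56 ± 0.35 log2, adjusted p = 0.0181), and without mutant positive array 3 or wild-type positive array 1 the adjusted p was 0.0616 to 0.0642. In wild types the sort difference of -0.95 ± 0.35 did not pass (adjusted p = 0.144) but did with the replicate block within genotype (adjusted p = 0.00577), as did its interaction, 1.41 (adjusted p = 0.0112).

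Wif1, a Wnt-binding protein unrelated in sequence to the Sfrp family, read 5.13, 4.55 and 4.16 in mutant positive cells, against 4.23, 4.35 and 3.96 in wild-type positive cells. It was 4.96, 4.93 and 4.95 in mutant negative cells, against 4.93, 5.96 and 5.46 in wild-type negative cells. All of these values other than that of wild-type negative array 2 are dim. In wild types the positive arrays lay below the negative ones, with a difference of -1.27 ± 0.27 log2 (adjusted p = 0.0115). Sfrp4 passed in no comparison, with a largest difference of -0.20 in the mutant sort.

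Dkk1 and Dkk3 were both higher in mutant positive than in wild-type positive cells. Dkk1, which blocks Lrp5 and Lrp6 and is itself a known target of canonical Wnt signalling, read 9.24, 9.11 and 8.94 in mutant positive cells, against 7.44, 8.06 and 6.86 in wild-type positive cells. It was 9.16, 8.95 and 8.68 in mutant negative cells, against 8.46, 8.67 and 8.48 in wild-type negative cells. The wild-type positive arrays lay below all others, and the mutant positive arrays overlapped the mutant negative ones. Dkk1 was 3.13-fold higher in mutant positive than in wild-type positive cells (1.64 ± 0.24 log2, adjusted p = 0.00159) and 2.12-fold lower in positive than in negative cells of wild types (-1.08 ± 0.24, adjusted p = 0.0172). The call within wild types did not survive removal of wild-type positive array 1 or wild-type negative array 2 or 3, at adjusted p 0.0505 to 0.0723. The interaction, 1.25 ± 0.34, did not pass (adjusted p = 0.0988) but did with the replicate block within genotype (adjusted p = 0.0283). Its second probe set gave 1.16 ± 0.44 between the positive groups (adjusted p = 0.163).

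Dkk3, a divergent Dickkopf protein whose action on Wnt signalling is less settled, read 9.26, 8.80 and 8.75 in mutant positive cells, against 8.22, 7.90 and 7.78 in wild-type positive cells. It was 8.17, 8.18 and 7.80 in mutant negative cells, against 8.07, 8.20 and 7.95 in wild-type negative cells. The mutant positive arrays lay above all 9 others, which overlapped. It was 1.95-fold higher in mutant positive than in wild-type positive cells (0.97 ± 0.17 log2, adjusted p = 0.00452) and 1.85-fold higher than in mutant negative cells (0.89 ± 0.17, adjusted p = 0.00969). The interaction, 0.99 ± 0.24, missed the threshold (adjusted p = 0.0554) and passed with the replicate block within genotype (adjusted p = 0.0227). Dkk2 and Dkk4 passed in no comparison.

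Among the R-spondins, which act through Lgr receptors and the ligases Rnf43 and Znrf3, Rspo1 and Rspo3 had unlike patterns. Rspo1 read 8.07, 8.26 and 8.38 in mutant positive cells, against 7.12, 7.19 and 7.07 in wild-type positive cells. It was 6.86, 6.79 and 6.34 in mutant negative cells, against 6.26, 7.17 and 7.15 in wild-type negative cells. The mutant positive arrays lay above all others. Rspo1 was 2.16-fold higher in mutant positive than in wild-type positive cells (1.11 ± 0.22 log2, adjusted p = 0.0105) and 2.98-fold higher than in mutant negative cells (1.58 ± 0.22, adjusted p = 0.00183).

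Rspo3, which in the mouse is needed for placental and vascular development, read 10.17, 9.91 and 10.32 in mutant positive cells, against 10.50, 10.13 and 9.83 in wild-type positive cells. It was 11.12, 11.21 and 10.84 in mutant negative cells, against 10.85, 10.83 and 10.66 in wild-type negative cells. All 6 positive arrays lay below all 6 negative arrays. It was 1.89-fold lower in positive cells of mutants (-0.92 ± 0.17 log2, adjusted p = 0.00862) and 1.54-fold lower in positive cells of wild types (-0.63 ± 0.17, adjusted p = 0.0459). The wild-type call lay at the threshold and was lost without mutant positive array 1, wild-type positive array 2 or 3, mutant negative array 1 or 2, or wild-type negative array 1, 2 or 3, at adjusted p 0.0519 to 0.147. A second Rspo3 probe set gave -0.44 in mutants and -0.04 in wild types, neither past the threshold. Rspo2 and Rspo4 passed in no comparison and differed by at most 0.26 in size.

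Axin2, a component of the beta-catenin destruction complex and a widely used readout of canonical signalling, was low in wild-type positive cells. It read 9.75, 10.31 and 9.86 in mutant positive cells, against 9.00, 9.08 and 8.82 in wild-type positive cells. It was 10.24, 10.24 and 10.17 in mutant negative cells, against 10.10, 10.29 and 10.33 in wild-type negative cells. The 3 wild-type positive arrays lay below all 9 others. Axin2 was 2.01-fold higher in mutant positive than in wild-type positive cells (1.01 ± 0.14 log2, adjusted p = 0.00115) and 2.42-fold lower in positive than in negative cells of wild types (-1.28 ± 0.14, adjusted p = 0.000151). In mutants the sort difference was -0.24 ± 0.14 (adjusted p = 0.477). The interaction was 1.03 ± 0.20 (adjusted p = 0.0184), and without wild-type negative array 2 or 3 its adjusted p was 0.0574 or 0.0568, and 0.0513 without both wild-type arrays numbered 1. A second Axin2 probe set, dim at a mean of 5.52, gave 0.16 between the positive groups, -0.14 in the wild-type sort and 0.10 for the interaction, none past the threshold.

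Lef1, a nuclear partner of beta-catenin and also one of its targets, read 10.38, 9.86 and 10.12 in mutant positive cells, against 9.96, 10.16 and 9.68 in wild-type positive cells. It was 10.54, 10.88 and 10.41 in mutant negative cells, against 10.69, 10.56 and 10.57 in wild-type negative cells. In both genotypes the positive arrays lay below the negative ones. The difference was -0.49 ± 0.17 log2 in mutants (adjusted p = 0.144) and -0.67 ± 0.17 in wild types (adjusted p = 0.0281). Mutant positive and wild-type positive cells differed by 0.19 ± 0.17 (adjusted p = 0.574). The call within wild types did not survive removal of wild-type positive array 1 or 3 or wild-type negative array 1, 2 or 3, at adjusted p 0.0679 to 0.102, and a second Lef1 probe set gave -1.04 there (adjusted p = 0.0645).

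**Figure D4:**
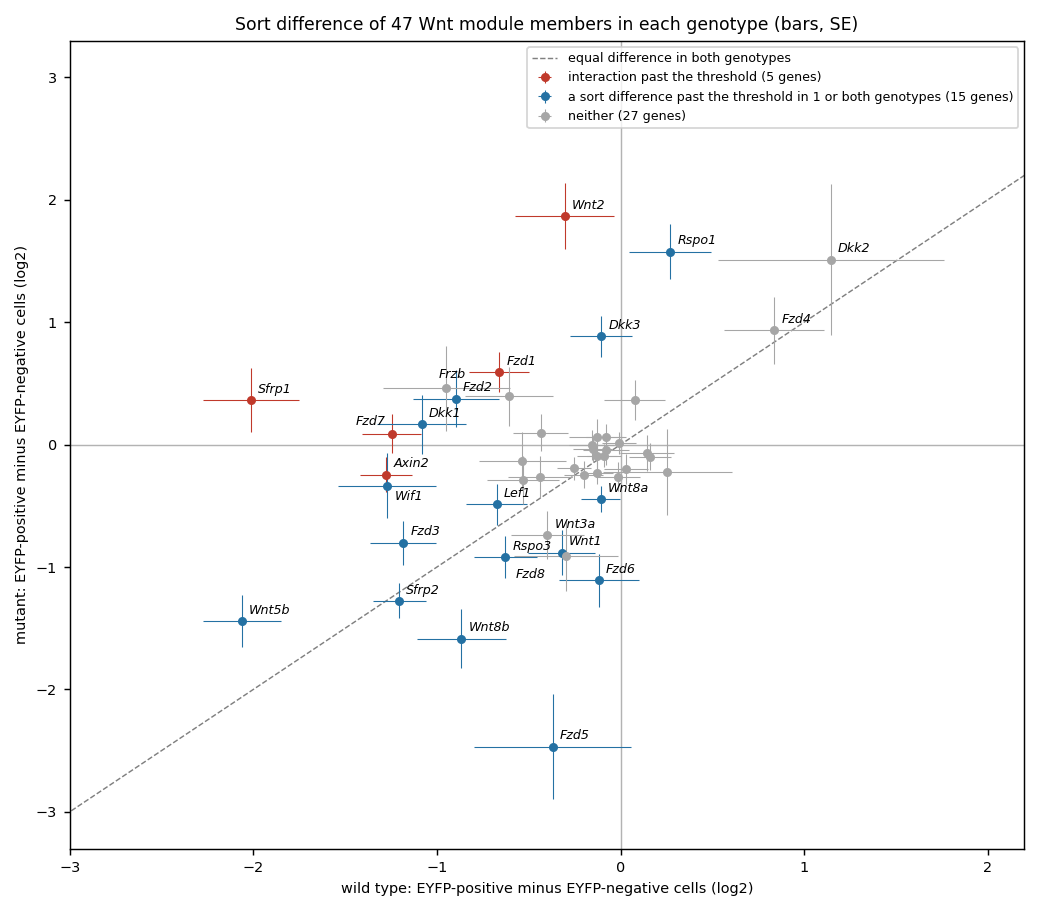
Log2 difference between positive and negative cells for the 47 genes, in wild types on the horizontal axis and in mutants on the vertical axis, with the line of equal differences. The 5 genes whose interaction passed the threshold (Wnt2, Fzd1, Fzd7, Sfrp1 and Axin2) lie above the line, while Sfrp2, at -1.28 in mutants and -1.21 in wild types, lies close to it.

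Where genes that passed have further probe sets, these mostly had the same sign, though some differences were near 0. Between mutant positive and wild-type positive cells 14 of 14 further probe sets had the sign of the chosen one, 7 of them past the threshold. In the wild-type sort it was 18 of 20, with 7 past the threshold, in the mutant sort 13 of 13, with 4 past it, and for the interaction 7 of 7, with 1 past it. Between the positive groups, the 7 past the threshold belonged to Sfrp1, Fzd2, Dkk3 and Frzb. No further probe set of Axin2, Dkk1, Fzd1, Fzd5, Fzd7 or Sfrp5 passed there, with Fzd1 at 0.02 and Sfrp5 at 0.08. Agreement in sign over all genes was not counted.

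The wider pathway was read from 4 lists of genes, 79 in all, of which 75 were measured. The lists were chosen with earlier results of these data known, so their shares describe the listed genes only and are not independent support. Of the 75, 4 (5.33%) were higher and 22 (29.3%) lower in positive than in negative cells of wild types, against 4.63% and 3.61% of all genes. Between mutant positive and wild-type positive cells 11 (14.7%) were higher and 3 (4.0%) lower, against 4.23% and 3.74% of all genes. In the sort of mutants 3 (4.0%) were higher and 11 (14.7%) lower, against 3.07% and 2.29% of all genes. Between mutant negative and wild-type negative cells none of the 75 passed. The median over the 75 was -0.26 log2 in the wild-type sort, against -0.02 over all genes, 0.13 between the positive groups, against 0.01, and -0.04 in the mutant sort, against -0.03. Over the 13 targets the median was -0.76 in the mutant sort, -0.96 in the wild-type sort and 0.43 between the positive groups.

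Genes of Wnt secretion and of the cell surface held 21 measured members, of which 3 (14.3%) were higher and 8 (38.1%) lower in positive cells of wild types, against 4.63% and 3.61% of all genes. Porcn, the enzyme that attaches the lipid to Wnt proteins, was lower there by a difference of -1.17 ± 0.14 log2 (adjusted p = 0.000234), and Ror2, a Wnt5a receptor, averaged 9.10 in positive and 10.10 in negative cells (adjusted p = 0.0031). Sost, a secreted antagonist acting on Lrp5 and Lrp6, was higher by 1.57 ± 0.15 (adjusted p = 4.52e-05), and Igfbp4, an IGF-binding protein that can bind Lrp6, by 0.95 ± 0.13 (adjusted p = 0.000944). Between mutant positive and wild-type positive cells 4 of the 21 were higher (Ror1, Ror2, Porcn and the Wnt carrier Wls) and 2 lower (Sost and Apcdd1), against 4.23% and 3.74% of all genes. Ror1, a relative of Ror2, rose by 1.28 ± 0.22 (adjusted p = 0.00425), and Sost fell by 1.66 ± 0.15. The Sost interaction was -1.73 ± 0.21 (adjusted p = 0.000829). Within mutants Igfbp4 was higher in positive cells and Porcn, Sostdc1 and Cer1 were lower, with Porcn at -0.94 ± 0.14, against 3.07% of all genes higher and 2.29% lower.

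Of 29 genes of the cytoplasm and nucleus, 1 (3.45%) was higher and 1 lower in each sort, close to the 4.63% higher and 3.61% lower of all genes in wild types and the 3.07% and 2.29% in mutants. Between the positive groups 3 (10.3%) were higher, against 4.23% of all genes, and 1 lower, against 3.74%. Tle4, a corepressor of Tcf factors, was lower in positive cells of mutants (-1.12 ± 0.15 log2) and of wild types (-0.69 ± 0.15), and Btrc, which marks beta-catenin for degradation, was higher in positive cells of wild types (0.53 ± 0.14). Between mutant positive and wild-type positive cells, Nkd1, a feedback inhibitor of Wnt signalling, was higher by 1.05 ± 0.26 (adjusted p = 0.0275) and Amer1, a partner of Apc and axin, by 0.94 ± 0.13. Tle3 was also higher there, by 0.57 ± 0.15, and Btrc lower, by a difference of -0.51 ± 0.14.

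Of 12 planar polarity genes, 4 (33.3%) were lower in positive cells of wild types (Celsr1, Celsr2, Vangl2 and Prickle2), against 3.61% of all genes, and none was higher. Celsr1, an atypical cadherin, differed there by -1.84 ± 0.19 log2, and it was higher in mutant positive than in wild-type positive cells by 1.05 ± 0.19 (adjusted p = 0.00567). Daam2, a formin, and Prickle1 were the other 2 of the 12 that rose in mutant positive cells, by 1.30 ± 0.21 and 0.89 ± 0.17, and 4.23% of all genes were higher there. In mutants Celsr1 and Celsr2 were lower in positive cells, at -1.18 ± 0.19 and -0.92 ± 0.13, and Daam2 was higher, against 2.29% of all genes lower and 3.07% higher.

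Of 13 genes listed as Wnt targets, 5 (38.5%) were lower in positive cells of mutants, against 2.29% of all genes, and 9 (69.2%) in positive cells of wild types, against 3.61%. In mutant positive cells 1 (7.69%) was higher than in wild-type positive cells, against 4.23% of all genes. Sp8, a zinc-finger factor of the tail bud and forebrain, differed by -3.94 ± 0.29 log2 in mutants (adjusted p = 5.82e-05) and by -3.09 ± 0.29 in wild types (adjusted p = 4.15e-05). Cdx1 and Cdx4, homeobox genes of the posterior body, were lower in positive cells of both genotypes, Cdx1 at -1.57 ± 0.31 in mutants and -1.81 ± 0.31 in wild types. Mycn, a growth regulator, was the gene of the list that was higher in mutant positive than in wild-type positive cells, by 0.54 ± 0.13 (adjusted p = 0.029). Several of the 13, such as Tbx6, Nkx1-2 and Fgf8, are also markers of paraxial mesoderm or tail bud, and of 8 paraxial markers 3 passed as lower in positive cells of mutants and 4 in wild types. The part of these cell types in the counts was not tested.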

How the data were processed

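The deposited values are log2 expression values that the authors made with RMA from 12 Affymetrix arrays, per the submitters' processing notes. The sources used here do not give RMA's version, settings or filters, so signal over background is unknown and the 3 arrays per group limit the precision. RMA makes the arrays' distributions alike, so each difference is relative to all genes on the array. The values were used as deposited.

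Of 45101 probe sets, 64 were controls, 34945 had 1 gene symbol in the platform annotation, 932 had several and 9160 had none. RefSeq (GRCm38.p6) changed 0 symbols. The probe set with the highest mean represented each of 18193 genes; 28 of the 47 genes described had several, 89 probe sets in all. Of the chosen probe sets, 2 carry the suffix x and 1 the suffix s, which mark probes that can bind other transcripts (Wnt3, Wnt5b and Fzd2), so these levels are less certain.

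The 4 groups were fitted in 1 model by lmFit, contrasts.fit and eBayes of limma 3.58.1 (R 4.3.3), all tests two-sided, with Benjamini-Hochberg adjustment over 18193 genes within a comparison and a threshold of 0.05. The fit was tested on simulated data. A separate fit of the same model took all 34945 probe sets with 1 gene symbol and adjusted over them, and it gave the adjusted p of further probe sets. In it the chosen probe sets of Fzd2 (0.0523), Rspo3 (0.0624) and Wnt8b (0.0673) missed the threshold in the wild-type sort. That of Fzd5 missed it between the positive groups (0.0504). Values on every array are given for genes past the threshold in at least 1 comparison and for Axin2, Lef1, Lrp5 and Lrp6. Fzd4 and Dkk2 were added after their values were seen. Up to 4 genes per pathway list and comparison are named, those with the smallest unadjusted p. The genes and lists were chosen with earlier results of these data known.

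The main fit used no pairs, since the labels name none, so its adjusted p-values are unpaired. Only in the alternative with a replicate block within genotype were a positive and a negative array of the same number read as a pair. That reading rests on the arrays' correlations. The deviations of same-numbered arrays from their group means correlated across genes at 0.554, 0.403 and 0.413 in mutants and at 0.190, 0.102 and 0.202 in wild types. For arrays of unlike number the correlations were -0.315 to -0.0856 in mutants and -0.241 to 0.0434 in wild types. Alternatives were other probe-set choices, a dim filter, quantile normalization or median centring, other variance settings, array weights, only the compared groups, replicate blocks, a 2-fold minimum, each array left out, and both wild-type arrays numbered 1 left out. Promoter letters came from RefSeq (GRCm38.p6).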

Additional observations from a re-analysis of the deposited data

Results flagged for a closer look

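For 5 of the 47 genes the difference between positive and negative cells differed between mutants and wild types by limma's interaction test, which is mutant minus wild type. The interaction was 2.17 log2 for Wnt2, 1.25 for Fzd1, 1.34 for Fzd7, 2.38 for Sfrp1 and 1.03 for Axin2. For Wnt2 the mutant positive arrays were the high group, and for Fzd7, Sfrp1 and Axin2 the wild-type positive arrays were the low group. For Fzd1 both held.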

How the results depend on the processing

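With each array left out in turn, the number of the 47 genes past the threshold ran between 7 and 12 in the wild-type sort (13 with all arrays), 11 and 13 between the positive groups (12), 9 and 13 in the mutant sort (12), 0 and 0 between the negative groups (0), and 4 and 7 for the interaction (5). The wild-type sort gave 7 without wild-type negative array 2, and 8 without wild-type positive array 1 or 3 or wild-type negative array 3. Of the other settings, the second probe set in place of the first gave 7 in the wild-type sort, 7 between the positive groups and 3 for the interaction. Leaving out both wild-type arrays numbered 1 gave 7 in the wild-type sort. A minimum of 2-fold gave 8 in the wild-type sort and 7 in the mutant sort. The replicate block within genotype gave 10 for the interaction (8 higher and 2 lower), 16 in the mutant sort (5 higher and 11 lower) and 16 in the wild-type sort (1 higher and 15 lower), and ended no call. A fold minimum can only lower a count by construction; for the other settings the cause was not tested.

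Over all genes, the wild-type sort called 1499, against 994 with second probe sets and 760 without both wild-type arrays numbered 1. With the block within genotype it called 2160. The comparison of the positive groups called 1450, against 844 with only these groups in the model. The mutant sort called 975, against 640 with second probe sets and 1486 with the block within genotype. The interaction called 469, against 797 with that block and 299 without wild-type negative array 2.

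Of 989 values of single genes under the alternatives, 875 kept their direction and call, 113 lost the call and 1 turned. The one that turned was Wnt8b in the wild-type sort, at 0.0763 with its second probe set. Calls kept under every alternative run, the 2-fold minimum and the dim filter included, were 3 of 12 between the positive groups (Rspo1, Sfrp1 and Wnt2), 4 of 12 in the mutant sort (Rspo1, Sfrp2, Wnt2 and Wnt5b), 4 of 13 in the wild-type sort (Fzd3, Sfrp1, Sfrp2 and Wnt5b) and 2 of 5 for the interaction (Sfrp1 and Wnt2). Rspo1, Wnt2 and Sfrp2 have 1 probe set each, so other probe-set choices could not change their levels, and their calls were not tested that way. Sfrp1 has 5 probe sets and Fzd3 has 6, and the alternatives took only the second or the mean of all. In the fit of all probe sets, the second Sfrp1 probe set passed for the interaction (adjusted p = 0.038). The others gave adjusted p 0.0582, 0.231 and 0.802. In the wild-type sort further Fzd3 probe sets missed the threshold at 0.0517 and 0.107, and the rest passed. Dim levels and 3 arrays per group limit what could be detected.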

Other observations

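Dkk2, an antagonist of canonical Wnt signalling, had the widest spread of the genes that passed in no comparison, 3.00 log2 over the 12 arrays. It read 8.27, 8.38 and 6.44 in mutant positive cells, against 8.70, 6.49 and 6.74 in wild-type positive cells. It read 5.70, 6.83 and 6.03 in mutant negative cells, against 6.50, 6.26 and 5.73 in wild-type negative cells. Mutant positive arrays 1 and 2 and wild-type positive array 1 stood above the other 9 arrays. The sort difference was 1.51 ± 0.61 in mutants (limma, adjusted p = 0.245) and 1.15 ± 0.61 in wild types (adjusted p = 0.368).

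Wnt5a, a ligand of the polarity branch, differed between its probe sets. The third by mean level gave 1.33 ± 0.23 log2 between mutant positive and wild-type positive cells (limma, adjusted p = 0.00623), while the chosen one gave 0.35 ± 0.15 (adjusted p = 0.209), the second 0.56 ± 0.28 (adjusted p = 0.305) and the fourth 0.06 ± 0.23 (adjusted p = 0.92). Wnt6, a ligand used in epithelia, showed -1.30 ± 0.31 in the wild-type sort with its second probe set (adjusted p = 0.0313), against -0.44 ± 0.17 with the chosen one (adjusted p = 0.181).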
